A study of Mus musculus with 9 samples.

Results

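The Fc gamma receptor genes and the adaptors that carry their signals were followed in ovarian tissue as a group of 8 genes, picked by gene name and with earlier results of these data known, though by no threshold on a value: Fcgr1, Fcgr2b, Fcgr3, Fcgr4, Fcer1g, Tyrobp, Trem2 and Syk. All 8 were among the 19517 genes of the authors' deposited table. RNA was sequenced from 9 ovarian samples from female mice of the BALB/c nude strain, which is athymic and lacks mature T cells but keeps macrophages, NK cells and B cells. All of these mice, the untreated ones included, carried tumours grown from MDA-MB-231 cells, a line of human breast cancer. There were 3 samples given cyclophosphamide (CTX), 3 given caulerpin (CAU), an indole alkaloid of green algae, and 3 with no treatment (UT). The labels give no dose, time or age, and those of the CAU group name caulerpin alone without saying whether cyclophosphamide was given too. By its title, the study asked whether caulerpin eases the ovarian damage of cyclophosphamide by way of macrophages and the ageing of granulosa cells. CAU against CTX addresses this directly only if the CAU mice also had cyclophosphamide.

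Fc gamma receptors let macrophages, neutrophils, NK cells and other white blood cells bind immunoglobulin G on coated particles, which the phagocytes among them take up. In mice, Fcgr1, Fcgr3 and Fcgr4 encode activating receptors that have no signalling motif of their own and sit in the membrane with the gamma chain encoded by Fcer1g. This adaptor carries an ITAM, a pair of tyrosines that Src-family kinases phosphorylate and that then bind the kinase SYK. Tyrobp encodes DAP12, another ITAM adaptor, which serves TREM2, a lipid-sensing receptor of tissue macrophages. Fcgr2b encodes the inhibitory receptor, whose ITIM recruits the phosphatase SHIP1. Ovaries hold resident macrophages that clear dying cells from regressing follicles and corpora lutea.

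The receptor genes lie close together in the genome. By the RefSeq annotation of GRCm38.p6, the build that the submitters' processing notes name, Fcgr2b (chr1:170960558-170976071), Fcgr4 (chr1:171018926-171029761), Fcgr3 (chr1:171051169-171065915) and Fcer1g (chr1:171229572-171234349) lie within 274 kb of chromosome 1. Fcgr1 lies at chr3:96282909-96293969, Tyrobp at chr7:30413782-30417582, Trem2 at chr17:48346401-48352276 and Syk at chr13:52582610-52648792. All 8 are protein-coding genes, and the only annotated genes that overlap any of them are small RNA genes, within Fcgr3 and Fcgr4.

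Promoters of the 3 activating receptor genes and of Fcer1g are shown because the activating receptors share a short purine-rich sequence near the start site, of the kind bound by PU.1, a transcription factor of macrophages and B cells. Each line gives the RefSeq window of 300 bases in GRCm38.p6, from 250 bases before the transcription start to 50 after it, 5′ to 3′ on the gene's own strand. The windows are chr3:96293920-96294219 on the minus strand for Fcgr1, chr1:171059354-171059653 on the minus strand for Fcgr3 (the first of its 2 windows in the table), chr1:171018676-171018975 on the plus strand for Fcgr4 and chr1:171234300-171234599 on the minus strand for Fcer1g. Capitals mark AGAGGAAG or its reverse complement.
Fcgr1: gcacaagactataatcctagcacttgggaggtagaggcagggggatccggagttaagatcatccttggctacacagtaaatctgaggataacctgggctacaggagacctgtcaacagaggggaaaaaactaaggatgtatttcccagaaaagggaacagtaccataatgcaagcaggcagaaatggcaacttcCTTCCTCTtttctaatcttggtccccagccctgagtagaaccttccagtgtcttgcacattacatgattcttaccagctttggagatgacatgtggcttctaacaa
Fcgr3: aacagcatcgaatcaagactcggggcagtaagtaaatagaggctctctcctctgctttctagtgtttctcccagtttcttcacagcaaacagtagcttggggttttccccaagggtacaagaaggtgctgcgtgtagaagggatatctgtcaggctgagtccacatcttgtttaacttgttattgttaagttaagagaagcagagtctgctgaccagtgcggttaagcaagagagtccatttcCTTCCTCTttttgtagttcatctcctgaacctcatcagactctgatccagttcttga
Fcgr4: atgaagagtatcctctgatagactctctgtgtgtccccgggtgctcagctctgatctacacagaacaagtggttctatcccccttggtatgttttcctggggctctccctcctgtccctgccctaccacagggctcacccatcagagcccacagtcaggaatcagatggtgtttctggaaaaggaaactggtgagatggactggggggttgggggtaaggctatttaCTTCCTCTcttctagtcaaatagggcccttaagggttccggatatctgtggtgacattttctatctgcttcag
Fcer1g: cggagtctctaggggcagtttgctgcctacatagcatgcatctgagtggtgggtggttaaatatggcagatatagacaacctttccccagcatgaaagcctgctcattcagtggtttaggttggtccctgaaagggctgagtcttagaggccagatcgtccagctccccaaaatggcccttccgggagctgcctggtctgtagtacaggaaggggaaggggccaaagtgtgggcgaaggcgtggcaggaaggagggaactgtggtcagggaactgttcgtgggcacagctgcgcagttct

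In Fcgr1, Fcgr3 and Fcgr4 the match read CTTCCTCT on the gene's strand and began 56, 7 and 23 bases before the start. It was found in 3 of the 7 genes of the group that have a promoter window, and in 5.22% of all 27025 genes with one. Both strands were searched for 4 overlapping versions of the motif, and the one marked was chosen after the matches were seen. The shortest, GAGGAA, was in 5 of the 7 genes and in 31.3% of all genes. GGAAGT was in 4 of the 7 and in 26.5% of all genes, and GAGGAAGT in 1 of the 7 (Fcgr4) and in 3.69%. The matches are a description of the sequence and do not show that a factor was bound.

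The values used were the log2 fold changes, p-values and adjusted p-values of the authors' deposited table, which come from DESeq2 and cover all genes in each comparison. No value per sample was used, so the spread of single ovaries and the overlap between groups are not shown. The standard error (SE) is the one that each deposited p-value implies, and the 95% intervals are built from it. Genes with an adjusted p under 0.05 are said to have risen or fallen. The table does not state which group is the numerator, and a column was read as the second group named over the first. With this reading, Cdkn1a, the p21 gene that DNA damage induces through p53, was 3.98-fold higher in CTX than in UT in the authors' deposited table. The opposite reading would turn every sign below. The labels number the replicates but do not tie them to different animals, and the p-values therefore rest on a spread that may be partly technical. Sequencing depth is unknown here.

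In CTX ovaries all 8 genes had lower values than in UT ovaries, and 1 of them, Fcer1g, passed the threshold. The median log2 fold change of the 8 was -0.71, against -0.03 for all 19260 genes tested, and the values lay between -1.02 and -0.34. Genes called lower made up 0.82% of all genes in this comparison. At an adjusted p under 0.10, 3 of the 8 were lower (Fcer1g, Fcgr4 and Fcgr3), against 1.24% of all genes. At an unadjusted p under 0.05, 7 of the 8 were lower, against 5.79% of all genes. Of all genes tested, 55.8% had a negative value. In bulk tissue, fewer cells of a type and less RNA per cell cannot be told apart.

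**Figure D1:**
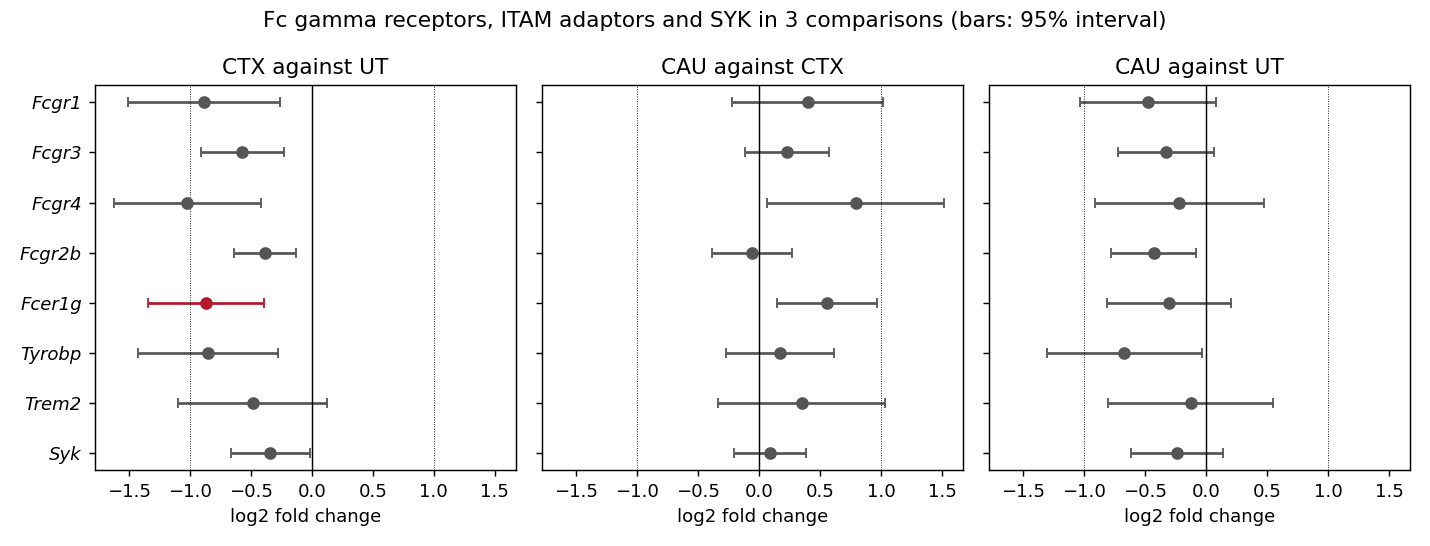
Log2 fold change (horizontal axis) of each gene in CTX against UT, CAU against CTX and CAU against UT. Points are the authors' deposited values, bars the 95% interval from the implied SE, dotted lines a 2-fold difference and red the one value with an adjusted p under 0.05. All 8 points lie left of 0 in CTX against UT and in CAU against UT, and 7 of 8 lie right of 0 in CAU against CTX.

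Among the activating receptors, Fcgr4 had the lowest value. In the authors' deposited table it was at -1.02 (SE 0.31, adjusted p = 0.0626), or 0.493 of the UT level, and did not pass. Mouse Fcgr4 binds IgG2 subclasses with intermediate affinity and is found on monocytes, macrophages and neutrophils. Fcgr1, the high-affinity receptor, was at -0.89 in the authors' deposited table (SE 0.32, adjusted p = 0.165). Fcgr3, the low-affinity receptor that NK and mast cells also carry, was at -0.57 in the authors' deposited table (SE 0.17, adjusted p = 0.0667). The intervals of these 3 values all lay below 0, and that of Fcgr3 (-0.91 to -0.23) left out a 2-fold fall.

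The gamma chain gene Fcer1g, which all 3 activating receptors need at the membrane, fell by 0.87 on the log2 scale in the authors' deposited table (SE 0.24, adjusted p = 0.0300). That is 0.547 of the UT level, with an interval of -1.34 to -0.40 on the log2 scale. It ranked 207th of 19260 genes by p-value. The call was lost at an adjusted p threshold of 0.01, and the fall is under 2-fold.

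Tyrobp had nearly the same value as Fcer1g with a wider error, at -0.85 in the authors' deposited table (SE 0.29, adjusted p = 0.135), and did not pass. Its partner receptor Trem2 was at -0.48 (SE 0.31, adjusted p = 0.687) per the authors' deposited table, the only value of the 8 in this comparison whose interval (-1.09 to 0.13) held 0. The inhibitory receptor gene Fcgr2b was at -0.38 in the authors' deposited table (SE 0.13, adjusted p = 0.120). Syk, the kinase that ITAMs recruit and that many cell types besides phagocytes express, was at -0.34 (SE 0.17, adjusted p = 0.451) per the authors' deposited table. The intervals of Fcgr2b (-0.63 to -0.13) and Syk (-0.66 to -0.02) left out a 2-fold fall.

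Whether the 8 genes can be ordered depends on how far their errors move together, and this was not known. The widest gap was between Fcgr4 and Syk, at -0.68 on the log2 scale, with an SE between 0.14 and 0.47 depending on how far the errors of both values move together, which the table does not show. The gap between the activating Fcgr4 and the inhibitory Fcgr2b was -0.64 (SE between 0.18 and 0.44), and that between Fcer1g and Fcgr2b was -0.49 (SE between 0.11 and 0.37). With the largest SE that any correlation allows, the 95% interval held 0 for all 28 pairs in each of the 3 comparisons. That SE needs fully opposed errors, so it does not show that the genes are alike. With uncorrelated errors, the Fcgr4 and Syk gap would have an SE of 0.35, and its interval would still hold 0. In CAU against CTX, Fcgr2b minus Fcer1g (-0.62) and Fcgr2b minus Fcgr4 (-0.85) would have SEs of 0.27 and 0.41. The intervals of both would then leave 0 out. Both gaps were singled out from 28 pairs in each of 3 comparisons, and the intervals are not corrected for that number. They do not show that the inhibitory and activating receptors differ. Fcgr2b and Fcgr3 also share sequence. Of the 1298 windows of 50 bases in the longest GENCODE transcript of Fcgr3, 166 (12.8%) occurred unchanged in Fcgr2b transcripts, and how reads from them were split is not given in the sources used here. No such window was shared between any other pair of the 4 receptor genes.

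**Figure D2:**
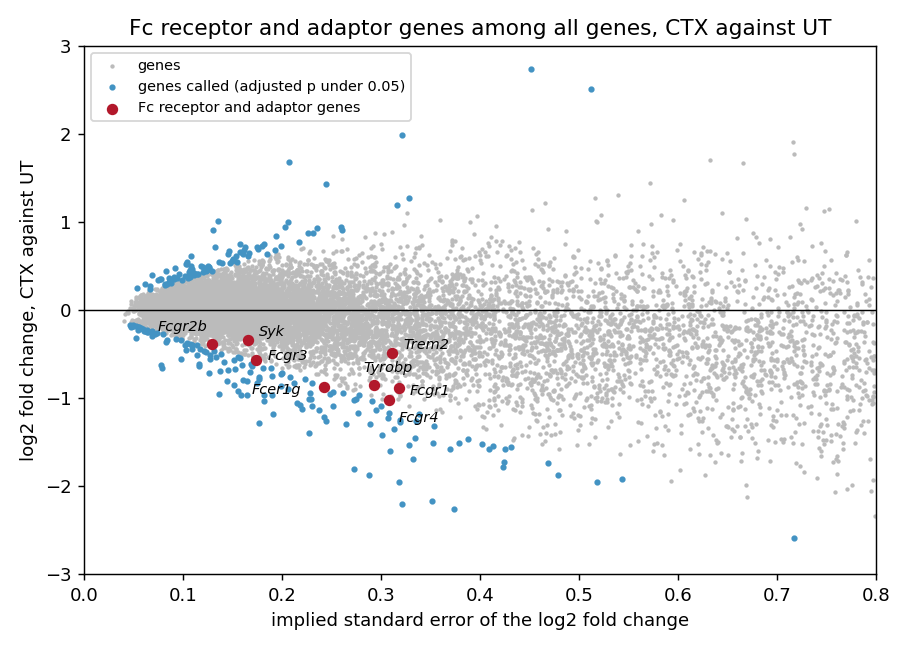
Log2 fold change in CTX against UT (vertical axis) against its implied SE (horizontal axis) for the genes of the authors' deposited table. Grey points are genes, blue points genes with an adjusted p under 0.05, red points the 8 Fc receptor and adaptor genes, and 4388 of 19260 genes lie outside the axes. The 8 genes have SEs of 0.13 to 0.32 and all lie below 0, with Fcer1g among the called genes and Trem2 and Syk within the grey cloud.

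In CAU ovaries the genes mostly had higher values than in CTX ovaries, but none passed DESeq2's adjusted threshold. Of the 8, 7 had positive values and the median was 0.29, against 0.00 for all 19245 genes, of which 52.3% were positive. Genes called higher made up 0.312% of all genes. At an unadjusted p under 0.05, 2 of the 8 were higher, against 3.32% of all genes. Those were Fcgr4 at 0.79 (SE 0.37, adjusted p = 0.802) and Fcer1g at 0.56 (SE 0.21, adjusted p = 0.451) per the authors' deposited table, and the intervals of the other 6 genes held 0.

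The other members stood closer to 0. In the authors' deposited table Fcgr1 was at 0.40 (SE 0.32), Trem2 at 0.35 (SE 0.35), Fcgr3 at 0.23 (SE 0.18) and Tyrobp at 0.17 (SE 0.23). Syk was at 0.09 (SE 0.15) and Fcgr2b at -0.06 (SE 0.17) per the authors' deposited table. Fcgr2b was the only one with a negative value, and its interval ran from -0.38 to 0.27. The widest gap in this comparison was between the inhibitory and an activating receptor, Fcgr2b lying 0.85 below Fcgr4 with an SE between 0.20 and 0.54. The intervals of Fcgr2b, Fcgr3, Fcer1g, Tyrobp and Syk left out a 2-fold rise, and those of Fcgr1, Fcgr4 and Trem2 did not.

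In CAU ovaries all 8 values were below those of UT ovaries, and none passed DESeq2's adjusted threshold. The median was -0.32, against -0.01 for all 19302 genes, of which 52.2% were negative. Genes called lower made up 0.0207% of all genes in this comparison. At an unadjusted p under 0.05, 2 of the 8 were lower, against 2.26% of all genes. In the authors' deposited table these were Tyrobp at -0.67 (SE 0.32) and Fcgr2b at -0.43 (SE 0.18), both with adjusted p = 1.00. With z values scaled to a spread of 1, Fcgr2b passed (adjusted p = 0.0475). That scaling also raised the calls over all genes, with 172 lower, against 4 as deposited.

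For the remaining genes the authors' deposited table gave Fcgr1 at -0.48 (SE 0.28), Fcgr3 at -0.33 (SE 0.20), Fcer1g at -0.30 (SE 0.26), Syk at -0.24 (SE 0.19), Fcgr4 at -0.22 (SE 0.35) and Trem2 at -0.13 (SE 0.35). The intervals of 6 genes left out a 2-fold fall, and those of Fcgr1 and Tyrobp did not. The 3 comparisons share their groups and are not independent. The value of CAU against UT equals the sum of the other two, to within 0.01 of a constant, for all 8 genes.

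Side by side, Fcer1g and Tyrobp had like values in CTX against UT and less like ones in the comparisons with CAU. Fcer1g was at -0.87 in CTX against UT, 0.56 in CAU against CTX and -0.30 in CAU against UT in the authors' deposited table. Tyrobp was at -0.85, 0.17 and -0.67 in the same order in the authors' deposited table. Fcer1g minus Tyrobp was -0.02 in CTX against UT, with an SE of at most 0.54. In CAU against CTX, Tyrobp lay 0.39 below Fcer1g with an SE between 0.02 and 0.44, and the interval with the largest SE (-1.24 to 0.47) held 0.

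Genes of the wider pathway mostly had lower values in CTX than in UT as well. The 7 pathway lists held 135 genes, of which 121 were in the table, and 8 of these fell and none rose. With all log2 fold changes centred on their median, 7 fell and 1 rose (Fyn, a Src-family kinase gene named after its value was seen). The 8 called genes are 6.61% against 0.82% of all genes, and the median log2 fold change was -0.62. At an unadjusted p under 0.05, 29 of the 121 were lower, against 5.79% of all genes, and 2 were higher, against 4.42% of all genes. In CAU against CTX, 1 of 120 tested genes rose, against 0.312% of all genes, and none fell, with a median of 0.18. At an unadjusted p under 0.05, 9 were higher there, against 3.32% of all genes, and none lower. In CAU against UT none of 121 passed, with a median of -0.24. In that comparison 12 were lower at an unadjusted p under 0.05, against 2.26% of all genes.

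Of 31 genes listed as other receptors linked to Fcer1g, Tyrobp or SYK, 28 were negative in CTX against UT (median -0.72) and 2 fell. Ncr1, an NK cell receptor that pairs with the gamma chain and is also on the NK marker list, was at -3.21 (SE 0.70, adjusted p = 0.00123) per the authors' deposited table. Csf2rb, the shared beta chain of the GM-CSF receptor family, was at -1.35 (SE 0.31, adjusted p = 0.00356) per the authors' deposited table. Ncr1 was also the 1 pathway gene that rose in CAU against CTX, at 3.12 (SE 0.70, adjusted p = 0.00490) per the authors' deposited table. Csf2rb was at 0.34 (SE 0.21) there in the authors' deposited table. This list was imprecise, with a median SE of 0.75 in CTX against UT.

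Of 34 kinases, adaptors and enzymes that act with or after SYK, 2 fell in CTX against UT and 26 were negative (median -0.32). Rac2, a GTPase of white blood cells that drives the actin and oxidase responses, was at -1.14 (SE 0.24, adjusted p = 0.000555) per the authors' deposited table. Vav1, the exchange factor that loads Rac proteins in white blood cells, was at -1.18 (SE 0.34, adjusted p = 0.0413) per the authors' deposited table. In CAU against CTX these were at 0.33 and 0.34 (SE 0.21 and 0.32) per the authors' deposited table, and neither passed.

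Of 21 inhibitory receptors and the phosphatases and adaptors they recruit, 18 were negative in CTX against UT (median -0.54) and 1 fell. This was Inpp5d, which encodes SHIP1, the phosphatase that the Fcgr2b ITIM recruits, at -0.54 (SE 0.16, adjusted p = 0.0444) per the authors' deposited table. Its call was lost when the fold changes were centred on their median or z was scaled to a spread of 1. In CAU against CTX it was at 0.19 (SE 0.15) per the authors' deposited table. The 5 subunit genes of the phagocyte oxidase, the enzyme that makes superoxide after Fc receptor engagement, were all negative in CTX against UT (median -0.80). None passed DESeq2's adjusted threshold and 4 were lower at an unadjusted p under 0.05. All 5 were positive in CAU against CTX (median 0.47), with 2 higher at an unadjusted p under 0.05 and none past the adjusted one. Cyba, the subunit with the smallest SE in CTX against UT, was at -0.29 (SE 0.17) per the authors' deposited table.

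Of 18 genes that encode TREM2 ligands or belong to lipid-handling macrophages, 15 were negative in CTX against UT (median -0.42) and 1 fell. Apoe, which encodes a lipoprotein that TREM2 binds, was at -0.56 (SE 0.10, adjusted p = 9.04e-06) per the authors' deposited table. Apoe is made by many cell types, and in CAU against CTX it was at 0.07 (SE 0.15) per the authors' deposited table. The median of the list in CAU against CTX was 0.00, with 9 genes positive and 9 negative.

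Of 11 genes listed as immunoglobulin receptors outside the Fc gamma family, Fc receptor-like genes included, 9 were negative in CTX against UT (median -0.81) and 2 fell. Fcrls, an Fc receptor-like gene, was at -1.25 (SE 0.24, adjusted p = 0.000143) per the authors' deposited table. Fcgrt, the neonatal Fc receptor that recycles immunoglobulin G in endothelium and macrophages, was at -0.37 (SE 0.10, adjusted p = 0.0292) per the authors' deposited table. Fcgrt was at -0.01 (SE 0.09) in CAU against CTX and at -0.38 (SE 0.11, adjusted p = 0.258) in CAU against UT in the authors' deposited table, and neither passed. Of the 12 listed immunoglobulin chains 1 was matched by symbol, the joining chain gene Jchain, at the imprecise value of -2.12 (SE 1.11) in CTX against UT in the authors' deposited table.

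Markers of the cells that carry these receptors differed in the same comparisons. Over all genes, 0.82% fell in CTX against UT and 0.312% rose in CAU against CTX. Of 19 macrophage markers, 7 fell in CTX against UT and 18 were negative (median -0.82), and 2 rose in CAU against CTX (median 0.30). The value of Csf1r, the macrophage colony-stimulating factor receptor gene, was -1.29 (SE 0.18, adjusted p = 1.16e-09) in CTX against UT in the authors' deposited table. Of 11 NK markers, 3 fell in CTX against UT (median -3.14) and 3 rose in CAU against CTX (median 2.93). The NK list was imprecise, with median SEs of 1.12 and 1.08. The 12 neutrophil markers had medians of -1.28 and 2.24 in these comparisons, with median SEs of 1.58 and 1.26, and none passed. At an unadjusted p under 0.05, 1 neutrophil marker was lower in CTX against UT and 3 were higher in CAU against CTX. The matching shares of all genes were 5.79% and 3.32%. None of the 8 Fc receptor and adaptor genes is on these lists. The part of any of these cells in the values of the 8 genes was not tested.

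The 8 measured B and plasma cell markers (median -0.92) and the 10 dendritic cell markers (median -0.73) were all negative in CTX against UT, and 7 of 9 mast cell markers were (median -1.61). None of these genes passed, and 1, 2 and 3 of them were lower at an unadjusted p under 0.05, against 5.79% of all genes. The medians of these lists in CAU against CTX were 0.28, 0.26 and 0.24, and none of their genes passed, with 1 mast cell marker higher and 1 lower at an unadjusted p under 0.05. The 11 endothelial markers, named because vessels can carry Fcgr2b, had a median of -0.06 in CTX against UT and none passed, with 2 lower at an unadjusted p under 0.05. In CAU against CTX, 10 of the 11 were negative (median -0.15), and in CAU against UT 10 were (median -0.24). None passed in either, and 2 were lower at an unadjusted p under 0.05 in each. The 10 granulosa cell markers, which are defining genes of the labelled tissue, all had tested values. They went the other way in CTX against UT, with 3 called higher, none lower and a median of 0.52. Over all 19260 genes, 91 were called higher in this comparison. Among the 3 was Inhbb, an inhibin subunit gene, at 1.00 (SE 0.21, adjusted p = 0.000378) per the authors' deposited table. Of the 10, 7 were negative in CAU against CTX (median -0.16) and 3 were lower at an unadjusted p under 0.05. The 1 that fell was Inhbb, at -0.47 (SE 0.09, adjusted p = 0.000565) per the authors' deposited table, where 25 of all 19245 genes fell. Their part in the values of the 8 genes was not tested either.

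**Figure D3:**
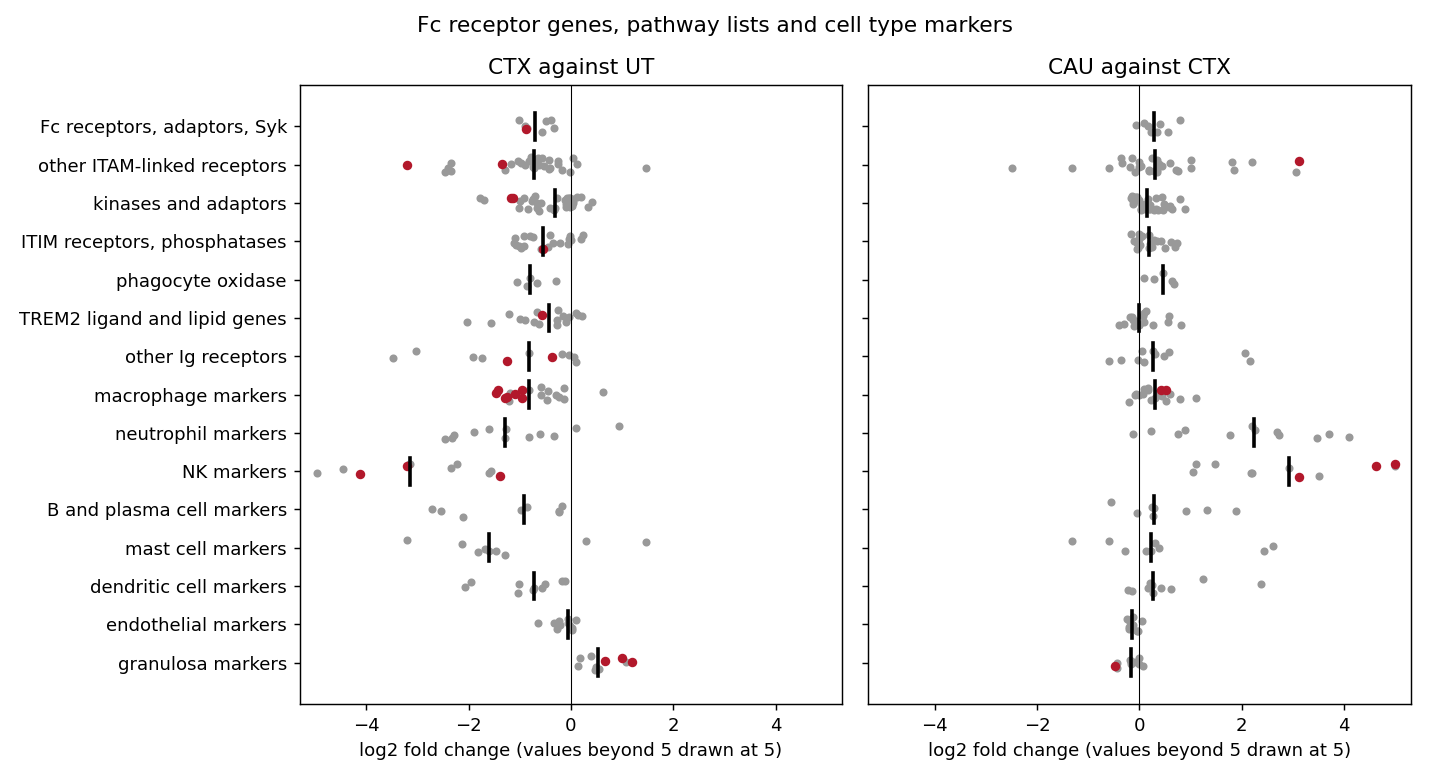
Log2 fold changes (horizontal axis) in CTX against UT and in CAU against CTX for the 8 Fc receptor and adaptor genes, 6 pathway lists and 8 cell type marker lists. Each point is a gene in the authors' deposited table, red marks an adjusted p under 0.05, black bars are list medians, and 2 NK genes beyond 5 are drawn at 5. The medians of the Fc receptor genes (-0.71 and 0.29) lie near those of several lists. Among pathway lists these are other ITAM-linked receptors (-0.72 and 0.32), other Ig receptors (-0.81 and 0.26), phagocyte oxidase (-0.80 and 0.47) and ITIM genes (-0.54 and 0.19). Among marker lists they are macrophage (-0.82 and 0.30), dendritic cell (-0.73 and 0.26) and B and plasma cell markers (-0.92 and 0.28). The dendritic and B and plasma cell lists had median SEs of 0.52 and 0.88 in CTX against UT. The medians of the NK markers (-3.14 and 2.93) lie farther out, with median SEs of 1.12 and 1.08.

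Position on chromosome 1 was examined as another shared feature. Between the ends of Fcgr2b and Fcer1g, 3 further genes had values in CTX against UT with an SE of at most 0.3, a limit set after their values were seen. Sdhc, which encodes a subunit of respiratory complex II, was at -0.05 (SE 0.07), Tomm40l at 0.13 (SE 0.15) and Pcp4l1 at -0.17 (SE 0.09) per the authors' deposited table. None of the 3 passed DESeq2's adjusted threshold, and none had an unadjusted p under 0.05. They are named outside the rule for named genes. Any other gene of the interval with a larger SE was left out, while members such as Fcgr4 (SE 0.31) were kept whatever their SE. The part of position in the values of the members was not tested.

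The genes whose values were most like those of the group were found by distance. Over the 3 comparisons, each gene's log2 fold changes were set against the medians of the 8 genes (-0.71, 0.29 and -0.32), among 10926 other genes with an SE of at most 0.3 in all 3. Fcgr1, Fcgr4, Tyrobp and Trem2 exceed this limit themselves, and genes measured as imprecisely were not candidates. Among the candidates, the nearest was Ace, which encodes angiotensin-converting enzyme, at a distance of 0.06. It was followed by Cybb, the catalytic subunit of the phagocyte oxidase (0.07), H2-T23 (0.07), LOC102641031 (0.08) and H2-Q4 (0.09), H2-T23 and H2-Q4 being nonclassical MHC class I genes. In CTX against UT, H2-Q4 was at -0.63 (SE 0.08, adjusted p = 4.42e-12) and H2-T23 at -0.71 (SE 0.13, adjusted p = 1.04e-05) per the authors' deposited table. Cybb was at -0.65 (SE 0.28, adjusted p = 0.324) there and, as with most of the 8 genes, did not pass. Because the comparisons share groups, this likeness rests on the equivalent of a pair of values per gene.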

How the data were processed

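RNA-seq of 9 ovarian samples (3 CTX, 3 CAU, 3 UT) was used through 1 table. Per the submitters' processing notes, the authors used GRCm38.p6, RSEM 1.3.1, HISAT2, Bowtie2 and DESeq2 1.44.0. The role of each, the strand setting, the filters and any covariates are not stated in what was used here. The log2 fold changes, p-values and q-values (called adjusted p) were computed by the authors, per the file headers. Between 215 and 272 genes had no value in a given comparison and did not enter it. A recomputed Benjamini-Hochberg adjustment differed from the deposited q-values by at most 7.74e-05.

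The implied SE was obtained by dividing the size of a log2 fold change by the normal deviate that its 2-sided p-value gives, assuming a Wald test without shrinkage, and intervals are normal. The sum of CTX against UT and CAU against CTX equalled CAU against UT, apart from a constant, to 0.01 or better for 18772 genes of 18773. The planned count test needs counts, so the DESeq2 result deposited by the authors was used. No set test was run. The 8 genes and all lists were chosen with earlier results of these data known. Genes named were those 8, up to 3 called genes of each list (or the 1 with the smallest SE), Cdkn1a, Csf1r and the 5 nearest genes. For lists described by counts alone, such genes are left out. Promoters and loci are from RefSeq, transcripts from GENCODE. Scripts (Python 3.11.15, numpy 2.4.6, pandas 2.3.3, scipy 1.17.1, matplotlib 3.10.9) were tested on simulated data. Depth per sample is unknown here, so no interval rests on counts. Alternatives were other thresholds, a 2-fold limit, centring, scaling of z and a limit on SE.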

Additional observations from a re-analysis of the deposited data

How the results depend on the processing

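Of the 6 alternatives, only centring on the median of all genes could change a sign, and that median was between -0.03 and 0.00 on the log2 scale. No sign of the 8 genes changed under it. Over all alternatives, 139 of 144 values of the 8 genes kept their side of the threshold. This count was partly fixed in advance, as the 2 stricter settings could not move a value that had not passed. Fcer1g in CTX against UT, the 1 value that had passed, lost its call in both. In CTX against UT, the count of the 8 genes that passed was 3 at an adjusted p under 0.10 (Fcer1g, Fcgr3 and Fcgr4), 0 at 0.01 and 0 with a 2-fold limit, against 1. The pathway count was 5 at 0.01 and 5 with the 2-fold limit, against 8, and that of all genes 415 at 0.10, 117 at 0.01 and 75 with the 2-fold limit, against 249. With log2 fold changes centred on their median, calls over all genes were 156 higher and 134 lower, against 91 higher and 158 lower as deposited, while Fcer1g still fell. In CAU against CTX, calls over all genes were 43 at 0.01, 55 with the 2-fold limit and 242 with z scaled to a spread of 1, against 85. In CAU against UT they were 3 with the 2-fold limit and 257 with z scaled, against 10. That scaling also called 1 of the 8 genes (Fcgr2b) and 6 pathway genes in CAU against UT, against 0 and 0. The deposited z values had a robust spread of 0.711 in CAU against UT, 0.839 in CAU against CTX and 1.01 in CTX against UT. No paired analysis was possible because the table used holds comparisons and no values per sample, and for the same reason leaving out replicates and other count normalizations or filters were not run. What depth limits could not be examined.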
